A study of Mus musculus with 6 samples.

Results

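Ribosomal protein genes were examined by the accessibility of their start sites in 6 ATAC-seq libraries of mouse T follicular helper (Tfh) cells. ATAC-seq uses a transposase that inserts sequencing adaptors into open DNA, so that read counts at a region measure how accessible it was. The genes were chosen by symbol, as peaks listed under Rpl or Rps followed by a number, or under Rplp0 to Rplp2, without the S6 kinases and pseudogenes. Of 77 such symbols with any listed peak, 72 had a peak that the file places at a transcription start site. These 72 were among 13799 genes with a start-site peak in the series, and their 96 start-site peaks were among 20036.

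The cells came from untreated C57BL/6 mice that were Stat6 WT or Stat6 knockout (KO). Stat6 is the transcription factor activated by the interleukin 4 receptor. From each genotype, 10 mice were used to sort the populations called Tfh21, Tfh214 and Tfh4, and 50000 cells went into each library. Each of the 6 combinations was 1 library from pooled mice, so genotype, pool of mice and library cannot be told apart. No driver, allele design or tissue was given in the sources used here.

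The ribosome has a large subunit, whose proteins carry Rpl symbols, and a small subunit, whose proteins carry Rps symbols. Their genes are transcribed in nearly every cell at high rate, from start sites that typically lie inside a run of pyrimidines. The messenger RNAs therefore begin with such a run, the 5′ terminal oligopyrimidine motif, through which mTORC1 and Larp1 control their translation. Activated T cells depend on this system to grow before they divide. The 77 symbols comprised 43 of the large subunit, 28 of the small subunit and 6 others. The 6 others were the paralogs Rpl22l1, Rpl36al, Rpl3l, Rpl7l1 and Rps27l, and Rps19bp1, which encodes a binding partner of Rps19 and no ribosomal protein. Rpl37rt, a retrotransposed copy, was counted with the large subunit by its symbol.

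Promoter sequences were taken from RefSeq (GRCm38.p6), since the peaks are in mm9 and the builds share no coordinates here. They were matched by symbol, which found 58 of the 77 genes with 70 promoters. The stretches below run from 60 bases before to 30 bases after the annotated start, on the transcribed strand. They are chosen examples and not a typical sample, with the longest unbroken run of C and T of each stretch in capitals. Over the 70 promoters, the median longest run within 50 bases of the start was 10. Rps6 and Rps19 were among the genes with most reads, Rpl37a was the gene called in a comparison, and Rps3 is a member without a long run. The capitals cover 6 bases in the first promoter of Rps19 and 13 in the second, and the run of Rpl37a is 7 bases here because the stretch ends inside it. For Rpl34 the second promoter is shown, and the longest run of its first promoter is 8 bases.
Rps6 (chr4:86857338-86857427, minus strand): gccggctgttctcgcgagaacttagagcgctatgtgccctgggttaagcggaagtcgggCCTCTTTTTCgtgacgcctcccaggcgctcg
Rps19, first promoter (chr7:24884532-24884621, plus strand): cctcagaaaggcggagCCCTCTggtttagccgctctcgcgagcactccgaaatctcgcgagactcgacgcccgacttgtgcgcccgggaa
Rps19, second promoter (chr7:24884616-24884705, plus strand): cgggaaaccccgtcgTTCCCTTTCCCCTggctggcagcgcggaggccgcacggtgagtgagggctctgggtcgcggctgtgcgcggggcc
Rpl27a (chr7:109519135-109519224, plus strand): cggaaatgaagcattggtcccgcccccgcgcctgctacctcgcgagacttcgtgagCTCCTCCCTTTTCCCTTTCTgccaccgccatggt
Rpl7a (chr2:26910747-26910836, plus strand): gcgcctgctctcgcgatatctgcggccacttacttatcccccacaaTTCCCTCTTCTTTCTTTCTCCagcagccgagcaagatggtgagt
Rpl35 (chr2:39005102-39005191, minus strand): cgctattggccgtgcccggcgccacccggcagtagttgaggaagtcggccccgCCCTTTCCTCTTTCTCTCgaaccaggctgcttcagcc
Rpl34 (chr3:130730308-130730397, minus strand): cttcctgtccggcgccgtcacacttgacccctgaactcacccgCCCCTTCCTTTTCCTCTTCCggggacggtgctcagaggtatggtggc
Rpl11 (chr4:136053364-136053453, minus strand): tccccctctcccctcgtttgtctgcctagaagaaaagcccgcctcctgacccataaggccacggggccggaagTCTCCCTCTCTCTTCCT
Rps25 (chr9:44407654-44407743, plus strand): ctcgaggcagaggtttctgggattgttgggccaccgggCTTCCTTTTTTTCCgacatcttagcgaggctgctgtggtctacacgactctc
Rpl37a (chr1:72711200-72711289, plus strand): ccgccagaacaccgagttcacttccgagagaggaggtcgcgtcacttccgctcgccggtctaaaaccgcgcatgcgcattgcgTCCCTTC
Rps3 (chr7:99483680-99483769, minus strand): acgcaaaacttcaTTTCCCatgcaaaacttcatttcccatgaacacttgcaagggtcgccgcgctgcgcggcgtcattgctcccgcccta

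Runs of C and T were long at most of these starts. Within 50 bases on either side of the annotated start, 40 of the 58 genes (69.0%) had a run of at least 10, against 20.6% of 27025 genes in the promoter table. Among the 5588 genes of the table whose start sites had enough reads to be tested here, the share was 19.1%. The longest run was 21 bases in Rpl7a and 20 in Rpl27a and in the second promoter of Rpl34. In Rps6 the run began 1 base before the annotated start and in Rpl27a 4 bases before it. A run of at least 5 that started exactly at the annotated first base was found in 14 genes (24.1%), against 5.28% of all genes in the table. Rps3 and Rpl23 had no run above 6 bases in this window. The search for the longest run near the start was added after the data were seen.

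Short motifs were searched on both strands over 300 bases, 250 before and 50 after the start, and no motif holds another. The letters TCTCGCGA were found in 10 of the 58 genes (17.2%), against 1.13% of all genes and 3.29% of genes tested. The 10 were Rpl7a, Rpl10a, Rpl26, Rpl27a, Rpl35, Rps3a1, Rps6, Rps15a, Rps19 and Rps28. The letters can be read in the stretches of Rps6, Rpl7a and the first promoter of Rps19 above. In the stretch of Rpl27a they lie on the opposite strand, and appear as TCGCGAGA. The ETS core CCGGAAG, bound by factors such as GABP, was in 21 genes (36.2%), against 9.93% of all genes and 23.2% of genes tested. The YY1 letters GCCATNTT were in 13 (22.4%), against 6.96% and 11.3%. The cyclic AMP response element TGACGTCA was in 5 (8.62%), against 2.03% and 4.53%.

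The GC box GGGCGG was in 60.3% of the ribosomal protein genes, above the 38.2% of all genes and below the 75.5% of genes tested. CCAAT was in 34.5%, against 41.1% and 45.8%. TATAAA was in 10.3%, against 15.7% and 7.50%, and the E-box CACGTG, the core that Myc binds, in 10.3%, against 8.09% and 12.6%. The palindrome that Stat6 prefers, TTC and GAA parted by 4 bases, was in 5 genes (8.62%), against 8.01% and 6.17%. These 5 were Rpl13, Rpl28, Rpl35, Rps3 and Rps26, and in the 150 bases nearest the start the share was 3.45%. The promoters held a median of 57.8% G and C and 21 CpG dinucleotides, against 52.7% and 7 over all promoters and 62.0% and 23 over those of genes tested. A match of letters is a description and not evidence of binding.

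**Figure D1:**
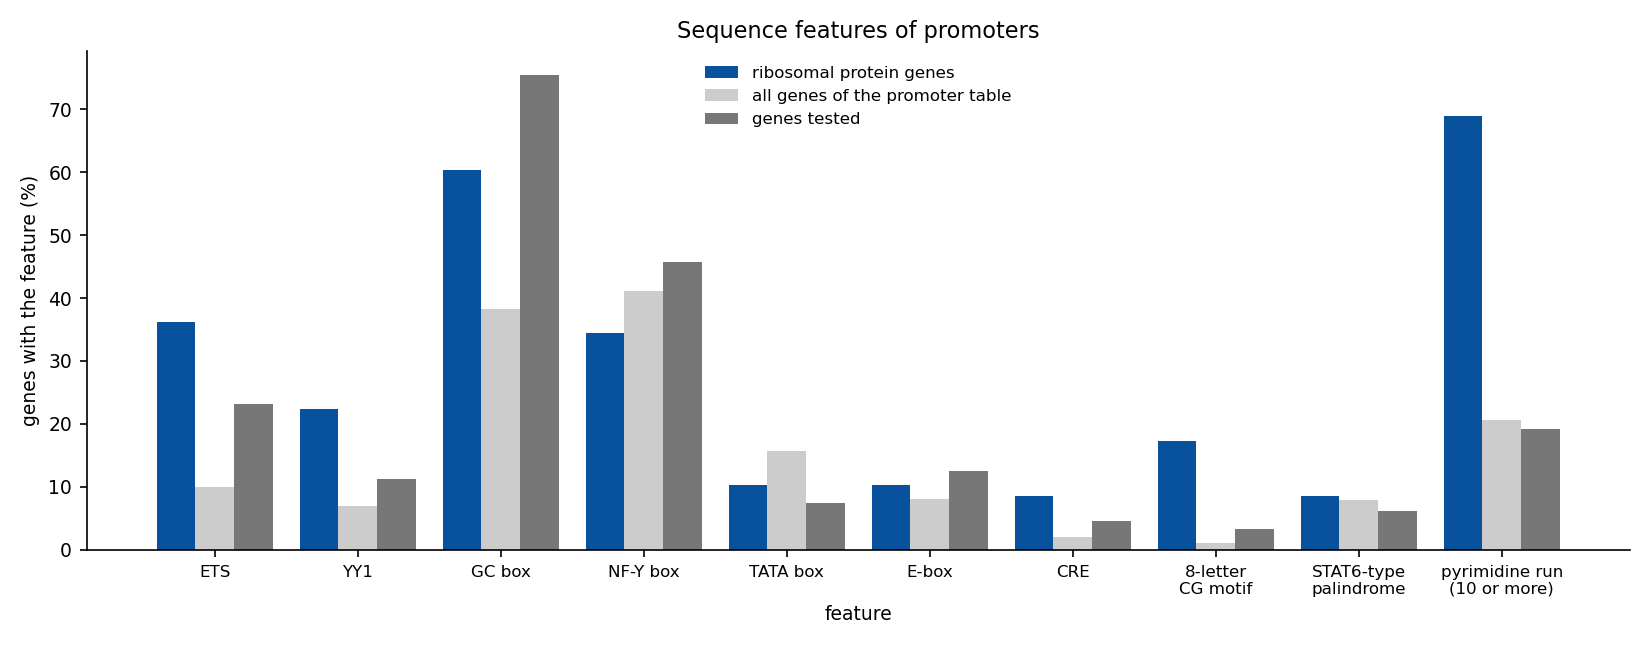
Share of genes (percent, vertical axis) whose RefSeq promoter holds each feature (horizontal axis), for 58 ribosomal protein genes, all 27025 genes of the promoter table and 5588 genes tested. A pyrimidine run of 10 or more was in 69.0% of ribosomal protein genes against 19.1% of genes tested, and the 8-letter CG motif, TCTCGCGA, in 17.2% against 3.29%.

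The libraries held between 798555 reads in peaks (KO Tfh214) and 1373218 (WT Tfh4), recovered as whole reads from the deposited CPM (counts scaled to the library's total). T cell and Tfh markers were open in every library, with all 5 and all 6 listed markers at a start-site peak and summed levels of 169 to 264 CPM and 294 to 412 CPM. Markers of other cells were present at lower sums, from 101 to 153 CPM for 5 of 7 B cell markers (Cd79a and Ms4a1 at 0) and 36.2 to 50.9 CPM for 4 of 4 myeloid markers. For CD8 T cells, Cd8a was at 0 and the list summed to 3.81 to 13.1 CPM. Their part in the results below was not tested.

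Start sites of ribosomal protein genes were open at levels near the middle of the genes tested. Their median was 196.5 reads over the 6 libraries (quartiles 135.75 and 252.5), against 125 (28 and 244) for all genes with a start-site peak. The median gene stood at percentile 65.8 of all genes by reads, and at 75.2 by reads per kb of peak. Among genes with a mean of at least 20 reads per library, which were those tested, the 57 ribosomal protein genes had a median of 229 reads, against 240 over 7087 genes. Only 1 of the 57 lay in the top 10% of these genes by reads, and 3 by reads per kb. On the per-length scale the medians were 277 reads per kb for the 57 and 267 for all genes tested. By subunit, the median was 274 reads per kb for 31 large subunit genes and 290 for 22 small subunit genes.

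Rps19, the gene most often mutated in Diamond-Blackfan anaemia, had the most start-site reads (444, mm9 chr7:25668800-25669939). In Tfh21, Tfh214 and Tfh4 its level was 65.9, 69.2 and 61.2 CPM in WT and 69.4, 57.6 and 63.8 CPM in KO. The KO libraries lay on both sides of the WT ones. Rps29 had 422 reads (chr12:70259638-70260832), with 64.1, 62.1 and 50.2 CPM in WT and 67.5, 72.6 and 58.9 CPM in KO. The paralog Rpl36al had 401 reads (chr12:70284690-70286004), with 58.8, 59.0 and 45.1 CPM in WT and 74.2, 62.6 and 56.5 CPM in KO. In both of these genes the Tfh4 library was the lowest of its genotype. Rpl34 had 381 reads (chr3:130432423-130433582), between 45.6 CPM in WT Tfh214 and 65.6 CPM in KO Tfh21. Rps6, the substrate of the S6 kinases, had 357 (chr4:86502625-86503818), with 54.3, 51.9 and 42.2 CPM in WT and 63.7, 58.9 and 46.8 CPM in KO. For Rps6 the KO library was higher in each population and Tfh4 lowest in each genotype. In CPM, 39.8% of genes tested were higher in KO in all 3 populations. Tfh4 was lower than Tfh21 in both genotypes for 69.6% of them.

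Apart from Rps19 and Rps6 above and Rps4x below, the members of known role with a start-site peak of their own lay near the middle of the range. Rpl5 and Rpl11, which join 5S RNA and can bind Mdm2, had 249 and 185 reads. Rpl22, which is needed for the development of alpha-beta T cells, had 262, ranging from 30.6 CPM in WT Tfh4 to 49.5 CPM in KO Tfh21. Rplp0, the base of the ribosomal stalk, had 196 reads, and Rpl3 and Rpl32 had 189 and 197. On the X chromosome, Rpl10, one of the last proteins added to the large subunit, had 242 reads. Rps4x, also X-linked, had 80 reads, between 8.01 and 14.3 CPM, and was below the minimum for the tests.

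**Figure D2:**
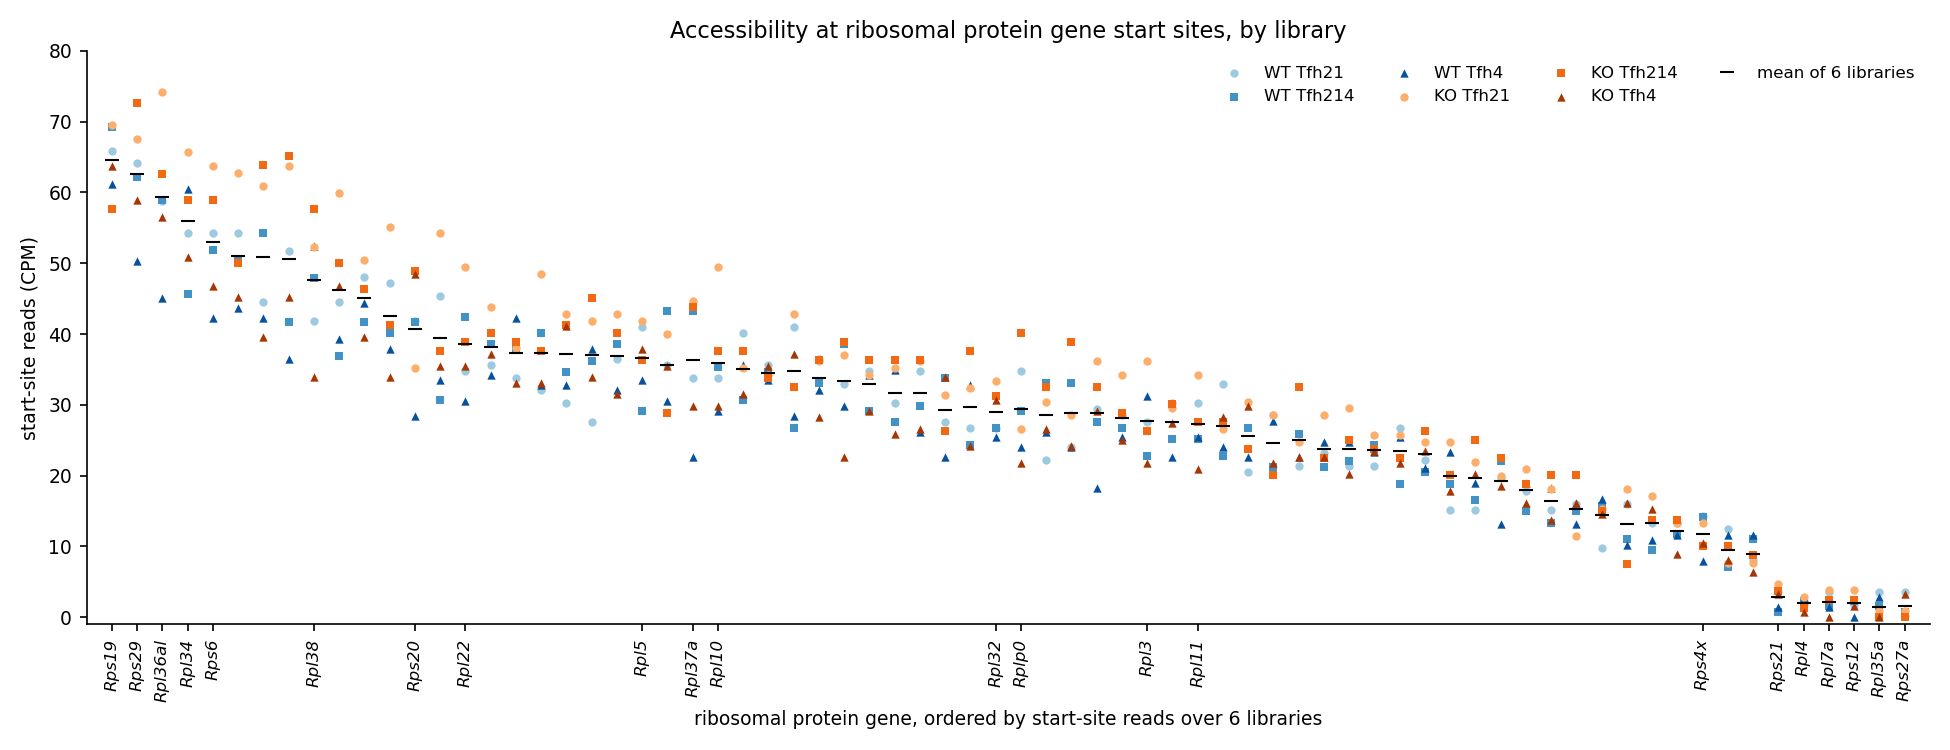
Start-site reads in CPM (vertical axis) of the 72 ribosomal protein genes with a start-site peak, ordered by reads over 6 libraries (horizontal axis), with 1 point per library, a bar at the mean and labels for some of the genes named in the text. Levels decline gradually from Rps19 (444 reads) and drop at the last 6 genes, from Rps21 (19 reads) to Rps27a (11 reads).

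The members with fewest reads had their main peak listed under another symbol. Rps27a (11 reads), Rpl35a (11), Rps12 (13), Rpl4 (14), Rpl7a (14) and Rps21 (19) had few reads under their own symbol. No start-site peak at all was listed under Rps3, Rpl7, Rpl23, Rpl26 and Rpl3l. For all of these except Rpl3l, the muscle paralog of Rpl3, a peak of 120 to 383 reads lay over the transcript start that the file itself gives for the gene, under another symbol. By position, 76 of the 77 genes thus had a peak over their start, with a median of 212.5 reads (quartiles 158.25 and 257) and a minimum of 47.

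The other symbols were of genes on the same strand, most of them small RNAs, or of neighbours on the opposite strand. Snord15a, a small nucleolar RNA, carried the peak at the start of Rps3 (246 reads, chr7:106631742-106632538). Snord100 carried that of Rps12 (305 reads, chr10:23506548-23507546), and Snora21 that of Rpl23 (120 reads, chr11:97643399-97643995). The microRNA Mir3091 carried that of Rps21 (276 reads) and the gene model Gm15772 that of Rpl26 (122 reads). The peaks of Rpl7 (383 reads) and Rps27a (330 reads) were listed under Rdh10 and Clhc1. Those of Rpl7a (235 reads), Rpl4 (224 reads) and Rpl35a (177 reads) were listed under Med22, Zwilch and Iqcg. These 5 neighbours lie on the strand opposite to the ribosomal protein gene. Each peak covers the start of the ribosomal protein gene and is listed as a start-site peak of the neighbour. Its reads cannot be assigned to either gene.

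**Figure D3:**
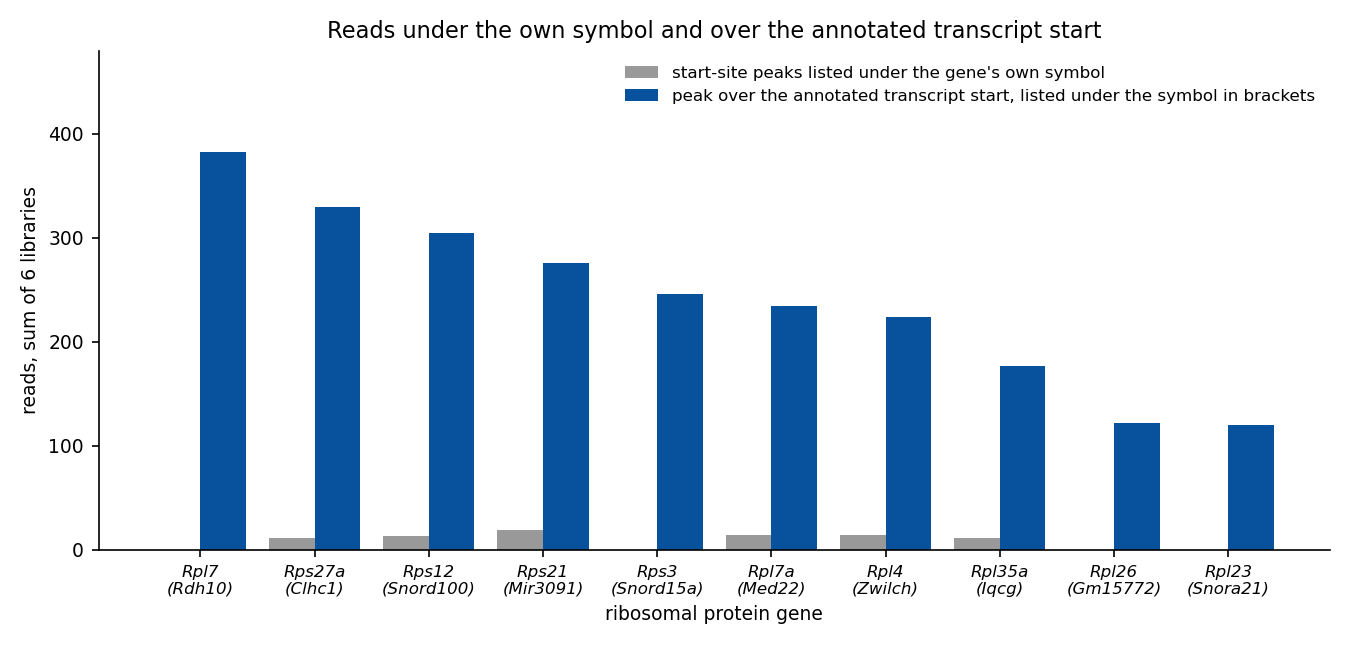
Reads summed over 6 libraries (vertical axis) for 10 ribosomal protein genes (horizontal axis), in start-site peaks listed under the gene's own symbol (grey) and in the peak over its annotated start listed under the symbol in brackets (blue). Own-symbol peaks held at most 19 reads, and the peaks over the starts 120 to 383.

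Peaks of these genes outside start sites were few and low. There were 48, of which 23 were in introns, 11 in coding exons and 10 at transcript ends. They held a median of 13.5 reads and at most 49, against a median of 159.5 for the 96 start-site peaks. Of the 72 genes, 54 had 1 start-site peak, 12 had 2 and 6 had 3.

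As a share of all reads in peaks, ribosomal protein start sites took more in KO than in WT in Tfh21 and Tfh214, and less in Tfh4 than in Tfh21. In Tfh4 the intervals of KO and WT overlapped. They took 0.211% in WT Tfh21 (Wilson 95% interval 0.203 to 0.219), 0.204% in WT Tfh214 (0.197 to 0.212) and 0.192% in WT Tfh4 (0.185 to 0.200). In KO the shares were 0.243% (0.234 to 0.253), 0.228% (0.218 to 0.239) and 0.195% (0.188 to 0.203). The same order held for start sites of all genes, which took 31.5, 31.0 and 27.6% of reads in WT and 36.4, 34.9 and 29.7% in KO. Set against start-site reads, the ribosomal protein genes were nearly level, at 0.668, 0.659 and 0.695% in WT and 0.668, 0.652 and 0.658% in KO.

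**Figure D4:**
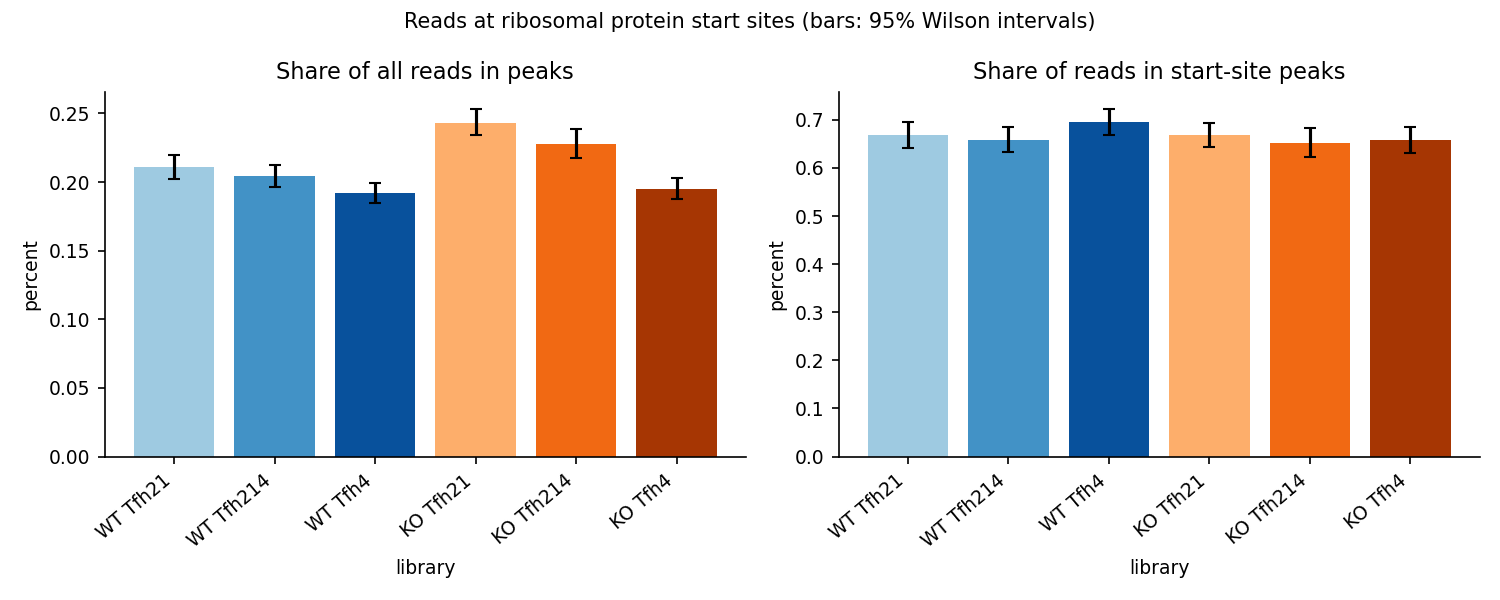
Reads at the start sites of 72 ribosomal protein genes in each of 6 libraries (horizontal axis), as a percentage of all reads in peaks (left) and of reads in start-site peaks (right), with 95% Wilson intervals. The left panel ranges from 0.192% to 0.243%, and the right panel from 0.652% to 0.695%.

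The summed level of KO over WT was 1.15 in Tfh21 (exact binomial 95% interval 1.09 to 1.22), 1.12 in Tfh214 (1.05 to 1.18) and 1.02 in Tfh4 (0.961 to 1.07). Relative to start-site reads, the same ratios were 0.9996 (0.945 to 1.06), 0.990 (0.932 to 1.05) and 0.946 (0.895 to 1.0005). Tfh4 over Tfh21 was 0.911 (0.862 to 0.964) in WT and 0.802 (0.758 to 0.848) in KO, and 1.04 and 0.984 relative to start-site reads. Intervals cover counting error only, since each group was 1 library from pooled mice. Copies made by PCR are not independent molecules, so the intervals may be too narrow even for that. The excess in KO of Tfh21 and Tfh214 and the deficit in Tfh4 against Tfh21 were thus seen in CPM, and were not detectable at this depth among start-site reads.

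Stat6 knockout was compared with WT over the 3 populations by an additive limma model of log2(CPM + 1), fitted to all 7087 genes tested. None of the 57 ribosomal protein genes passed an adjusted p of 0.05 (limma, Benjamini-Hochberg), while 72 genes (1.02%) of all genes tested did. That background fell to 1 gene with median-of-ratios scaling, start-site scaling or edgeR, and to 0 with DESeq2, limma without the variance trend or without the Tfh21 libraries. At an unadjusted p under 0.05, limma counted 4 of the 57 (7.02%), against 19.5% of all genes tested. edgeR and DESeq2 counted 0 of the 57, against 2.44% and 0.0423% of all genes tested. The median log2 change of the 57 was 0.13, against 0.17 over all genes tested. Of the 57, 46 (80.7%) were above 0, against 84.2% of all genes tested. Under median-of-ratios scaling, which lowered the median of all genes tested to 0.00, the median of the 57 was -0.03. There 23 (40.4%) were above 0, against 51.0% of all genes tested. Of the 57, 22 lay above the median of all genes tested. The fit left 2 residual degrees of freedom per gene, and limma moderated each variance toward that of genes at like level. The p-values thus rest in part on spread pooled over genes, and no animals were measured apart.

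Among the members with the highest changes, none past the threshold, were Rpl41 and Rps15. Rpl41, the shortest ribosomal protein, had a log2 change of 0.39, from 29.4, 27.5 and 18.2 CPM in the WT libraries (Tfh21, Tfh214, Tfh4) to 36.2, 32.6 and 29.1 CPM in KO. Rps15 had 0.39 too, from 15.1, 16.5 and 18.9 CPM to 21.9, 25.05 and 20.2 CPM. All 3 KO libraries were above all 3 WT libraries for Rps15, which was named for its large change. The share of all genes in that order was not counted, and neither gene passed the test. Near the other end stood Rpl29 (-0.07) and Rps9 (-0.07), for which KO was not lower in every population.

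Of the 57, 20 (35.1%) were higher in KO in all 3 populations, against 39.8% of genes tested, and 0 were lower in all 3, against 2.14%. The 20 included Rpl5, Rpl10, Rpl32, Rps6 and Rps29. As a share of start-site reads, 6 (10.5%) were higher in all 3, against 14.0%, and 8 (14.0%) were lower, against 10.8%. The 6 included Rpl22l1, Rpl32, Rpl41, Rps6 and Rps13, and the 8 included Rpl11, Rpl27, Rpl29, Rps14, Rps19, Rps23 and Rps26. Large and small subunit genes had like medians, 0.15 over 31 genes and 0.12 over 22.

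Between Tfh4 and Tfh21, over both genotypes, none of the 57 passed the test, against 222 genes (3.13%) of those tested, all lower in Tfh4. None of the 7087 passed with median-of-ratios or start-site scaling, limma without the variance trend, edgeR or DESeq2. At an unadjusted p under 0.05, limma counted 12 of the 57 (21.1%), against 25.7% of all genes tested. edgeR and DESeq2 counted 0 of the 57, against 1.64% and 0% of all genes tested. The median log2 change was -0.19 for the 57 and -0.26 for all genes tested, and 0.07 and -0.00 under median-of-ratios scaling. Tfh4 was lower than Tfh21 in both genotypes for 35 of the 57 (61.4%), against 69.6% of genes tested, and higher in both for 0, against 2.26%. Among the most negative changes were those of Rpl37a (-0.57) and Rps25 (-0.51), with limma adjusted p-values of 0.0770 and 0.0853. Rps25, which is needed for initiation on some viral messenger RNAs, had 45.4 CPM in Tfh21 and 33.5 CPM in Tfh4 of WT, and 54.2 and 35.5 CPM in KO. The highest were Rps15 (0.10), Rpl17 (0.07) and Rps28 (0.07).

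Between Tfh214 and Tfh21, no ribosomal protein gene passed the test, nor did any other gene (0.00%). The median was -0.07 for the 57 and -0.04 for all genes tested, and 306 genes had an unadjusted p under 0.05 by limma. Of the 57, 3 (5.26%, against 4.32% of all genes tested) had such a p by limma, 1 (1.75%, against 1.96%) by edgeR and 0 (against 0%) by DESeq2. Rps25 (-0.53) and Rps7 (-0.49) had the lowest changes and Rpl14 (0.44), Rpl35 (0.33) and Rpl39 (0.32) the highest. Rpl14 had 24.0 CPM in Tfh21 and 33.0 CPM in Tfh214 of WT, and 28.5 and 38.8 CPM in KO. For Rps7 the order was reversed, with 41.0 and 26.7 CPM in WT and 42.8 and 32.6 CPM in KO.

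Between Tfh4 and Tfh214, Rpl37a was the 1 ribosomal protein gene that passed the test, among 156 genes (2.20%) of those tested, all lower in Tfh4. The 156 became 0 with median-of-ratios or start-site scaling, limma without the variance trend, edgeR, DESeq2 or all listed peaks, and 1 without the Tfh21 libraries. Rpl37a encodes a zinc-binding protein of the large subunit (243 reads, chr1:72757510-72758237). Its level was 43.2 CPM in WT Tfh214 and 22.6 CPM in WT Tfh4, and 43.8 and 29.9 CPM in KO. Both Tfh4 libraries were below both Tfh214 libraries, and below the Tfh21 libraries at 33.8 and 44.7 CPM. How many of all genes had that order was not counted. Most genes tested were lower in Tfh4, with 14.6% above 0 against Tfh214 and 8.21% above 0 against Tfh21. The change of Rpl37a was -0.72 on the log2 scale (SE 0.20, limma adjusted p = 0.0308). Over the alternatives its adjusted p was lowest with a pseudocount of 0.5 (0.0323) and above the threshold with median-of-ratios scaling (0.848), edgeR (0.9999), DESeq2, all listed peaks (0.380) and without the Tfh21 libraries (0.283). At an unadjusted p under 0.05, 7 of the 57 (12.3%) were counted by limma, against 21.1% of genes tested.

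The next lowest were Rplp0 (-0.56) and Rpl29 (-0.56), neither past the threshold. Rplp0 had 29.1 CPM in Tfh214 and 24.0 CPM in Tfh4 of WT, and 40.1 and 21.8 CPM in KO. Among the highest were Rpl10a (0.18) and Rps7 (0.13). The median of the 57 was -0.10, against -0.22 over all genes tested, and 0.11 against -0.00 under median-of-ratios scaling. Large subunit genes had a median of -0.18 and small subunit genes of -0.05.

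**Figure D5:**
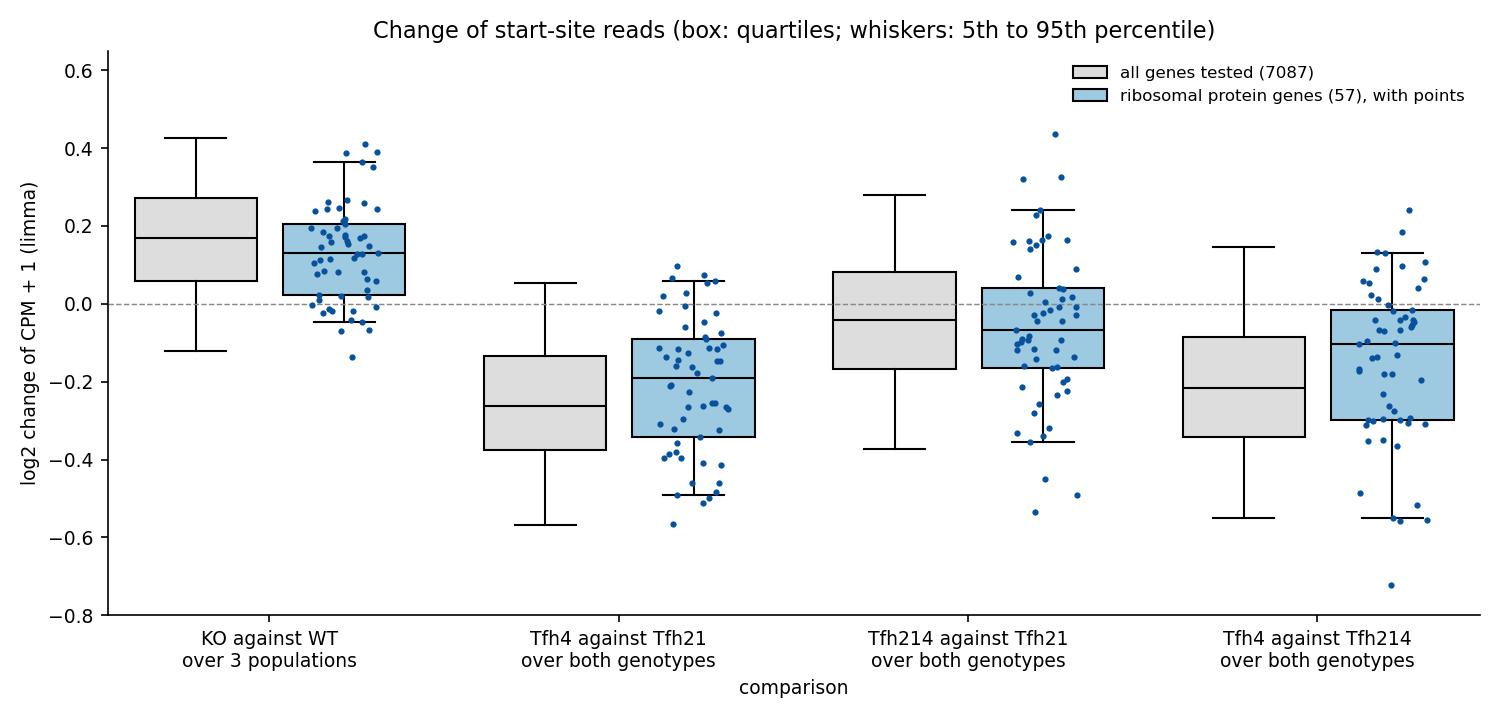
Log2 change of CPM + 1 from limma (vertical axis) in 4 comparisons (horizontal axis), for all 7087 genes tested (grey) and 57 ribosomal protein genes (blue, with points). In KO against WT the medians are 0.17 and 0.13, and in Tfh4 against Tfh21 -0.26 and -0.19. The lowest point, at -0.72 in Tfh4 against Tfh214, is Rpl37a.

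Peaks over starts that carry another symbol gave like results. Modelled as single peaks, none of the 10 passed the test in any of the 4 comparisons. Of all 6821 start-site peaks tested, 64 passed in KO against WT and 145 in Tfh4 against Tfh21. In Tfh214 against Tfh21 0 passed, and in Tfh4 against Tfh214 130. With so few of all peaks passing, 0 of 10 does not set these peaks apart. The largest genotype change among the 10 was at the start of Rpl26, under Gm15772, with 17.8, 11.01 and 13.1 CPM in WT and 27.6, 21.3 and 19.4 CPM in KO. All 3 KO libraries were above all 3 WT libraries there, and the change was 0.68 on the log2 scale (SE 0.22, limma adjusted p = 0.0903). That peak was named for its change, and the share of all peaks in that order was not counted. The peak of Rps3 had a change of 0.14, that of Rps12 0.01 and that of Rpl4 -0.06. Between Tfh4 and Tfh21, 9 of the 10 were below 0, from -0.13 at Rps3 to -0.45 at Rpl26, and that of Rpl23 was at 0.06. Over all start-site peaks tested, 7.80% were above 0.

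Pairs of single libraries were compared without a test, counting genes at least 1.5-fold apart with 20 or more reads in the higher library. For KO over WT, 1 of 57 ribosomal protein genes was higher in Tfh21 (8.29% of genes compared) and 0 lower (0.725%). In Tfh214, 2 of 57 were higher (6.14%) and 0 lower (1.75%), and in Tfh4, 3 of 61 were higher (7.32%) and 1 lower (3.10%). The percentages in brackets give the share over all genes compared, and each count of ribosomal protein genes was a smaller share.

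Within WT, Tfh4 over Tfh21 had 2 of 59 higher (1.43%) and 1 lower (9.03%). Tfh214 over Tfh21 had 1 of 58 higher (2.75%) and 1 lower (2.75%), and Tfh4 over Tfh214 had 0 of 59 higher (2.14%) and 2 lower (10.4%). Within KO, Tfh4 over Tfh21 had 0 of 59 higher (0.341%) and 8 lower (14.7%). Tfh214 over Tfh21 had 0 of 57 either way (1.04% higher and 5.08% lower), and Tfh4 over Tfh214 had 1 of 59 higher (1.40%) and 6 lower (10.0%). In the KO libraries, as over all genes, the larger counts were of genes lower in Tfh4.

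Rps20 and Rpl38 varied most between libraries. Rpl38, whose loss alters translation of Hox messenger RNAs in the embryo, had 41.9, 48.0 and 52.4 CPM in the WT libraries, in the same order, and 52.3, 57.6 and 33.9 CPM in KO. KO over WT was 1.25 in Tfh21 (exact interval 0.831 to 1.89), 1.20 in Tfh214 (0.801 to 1.79) and 0.647 in Tfh4 (0.431 to 0.959). Rps20 had 41.9, 41.7 and 28.4 CPM in WT and 35.2, 48.8 and 48.4 CPM in KO. Its ratio was 0.841 in Tfh21 (0.531 to 1.32), 1.17 in Tfh214 (0.755 to 1.81) and 1.71 in Tfh4 (1.12 to 2.62). In Tfh4 these 2 genes lay on opposite sides of 1, as the only members of 61 compared whose exact interval excluded 1. The share of all genes compared with such an interval was not counted, so the 2 are not shown to be unusual. Rps20 and Rpl38 were picked for their spread in these same counts, so the intervals are no separate support. Whether their genotype ratios differ between populations was not tested. The variance of reads over the 6 libraries relative to that of independent counts had a median of 0.634 over the 57 genes, against 0.649 over all genes tested. A median of 0.870 is expected of independent counts. The highest values of the 57 were 1.79 for Rps20 and 1.68 for Rpl38.

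Other genes of the translation machinery were read from lists of related function. In KO against WT, 0 of 38 mitochondrial ribosomal protein genes, 0 of 29 translation factors, 0 of 30 ribosome biogenesis genes and 0 of 10 regulators passed the test, against 1.02% of all genes tested. Their median log2 changes were 0.11, 0.19, 0.15 and 0.20. In Tfh4 against Tfh21, no gene of these 4 lists passed either, and the medians were -0.26, -0.24, -0.29 and -0.18. In Tfh4 against Tfh214, 1 of the 30 biogenesis genes passed, Ubtf, the factor that opens ribosomal RNA genes to RNA polymerase I, with a change of -0.67 on the log2 scale (adjusted p = 0.0308, limma), against 2.20% of all genes tested. Ubtf had 48.8 CPM in Tfh214 and 46.6 CPM in Tfh4 of WT, and 60.1 and 24.2 CPM in KO, where the KO Tfh4 library was the lowest of these 4. No gene of that list passed under median-of-ratios scaling, edgeR or DESeq2. Ribosomal proteins outside the symbol rule, 4 genes, had a median of 0.06 in KO against WT. Mitochondrial ribosomal protein start sites had a median of 194 reads, against 229 for the cytosolic genes tested.

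Promoter features were set beside the level of the tested genes that had a promoter entry. The 30 with a run of at least 10 had a median of 232.5 reads (130 to 444), and the 12 without had 193.5 (122 to 256). The 17 with CCGGAAG had a median of 239 and the 25 without 215. For TCTCGCGA the medians were 231.5 over 8 genes and 222 over 34. Genotype log2 changes had medians of 0.15 with and 0.09 without the run, of 0.13 both with and without CCGGAAG, and of 0.05 with and 0.14 without TCTCGCGA. The ranges of reads overlapped in each of these pairs of groups.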

How the data were processed

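ATAC-seq was measured in 6 libraries, 1 for each Stat6 genotype and Tfh population. The authors deposited 1 table of 282898 peaks with a CPM value per library, scaled to the reads in listed peaks. Per the submitters' processing notes, the tools were Bowtie 1.3.0, MACS2 2.0 and HOMER, with mm9 as the build. Their roles, the treatment of duplicates and of reads that map to several places, and any shift of cut positions were not given in the sources used here. Multiple mapping bears on these genes, which have many near-identical processed pseudogenes.

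In each library at least 99.9989% of values were whole multiples of 1 read, within 0.02 reads, so whole reads were recovered (798555 to 1373218 per library). The symbol came from the field headed as gene ID. Start-site peaks, within 999 bases of a start, were summed per gene. limma 3.58.1 (R 4.3.3) fitted log2(CPM + 1) with genotype and population and a variance trend over 7087 genes with a mean of at least 20 reads, with Benjamini-Hochberg adjustment. The fit was run on simulated independent counts, which held no shift of start-site share between libraries. That check therefore does not cover the effect of such a shift. edgeR 4.0.16 and DESeq2 1.42.0 on recovered reads were alternatives, as were other scalings, pseudocounts and minimums. With 1 library per group, limma p-values measure spread over populations or genotypes, moderated by the spread of other genes at like level. That spread may be technical. Python 3.11.15 was used for counts and figures. Named genes were the 5 with most and the 5 with fewest reads, members without a start-site peak, those called or with the 3 largest changes each way, and 12 of known role. Genes named by range, motif, position or pair were chosen after their values were seen. Members and lists were chosen with earlier results of these data known. Some members that these rules name are not reported here.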

Additional observations from a re-analysis of the deposited data

How the results depend on the processing

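No paired analysis was possible because each group had 1 library, so no replicate number pairs libraries. Population stood beside genotype as a term in the model, so each KO library was set against the WT library of its population. In KO against WT, Tfh4 against Tfh21 and Tfh214 against Tfh21, 0 ribosomal protein genes were called under every alternative run. In Tfh4 against Tfh214 the 1 call became 0 with median-of-ratios scaling, scaling by start-site reads, limma without the variance trend, edgeR, DESeq2, all listed peaks and without the Tfh21 libraries. The median log2 change reversed under median-of-ratios scaling, start-site scaling, edgeR and DESeq2, to -0.0324, -0.0227, -0.0555 and -0.0255 in KO against WT, to 0.0690, 0.0468, 0.0674 and 0.0688 in Tfh4 against Tfh21 and to 0.109, 0.0898, 0.0861 and 0.0862 in Tfh4 against Tfh214. By construction these settings scale to start-site reads (start-site scaling), to the median ratio over genes tested (median-of-ratios, DESeq2) or to their trimmed mean of log ratios (edgeR).

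Counts past 1.5-fold were summed over pairs, so a gene could be counted once in each pair. Over the 3 genotype pairs, 6 of 175 were higher (3.43%, against 7.25% over all genes) and 1 lower (0.571%, against 1.86%). In both directions and under each setting, the share was below that over all genes. Higher counts became 1 with median-of-ratios or start-site scaling and 0 at 2-fold, and lower counts 3 with either scaling or a minimum of 10 reads and 0 at 2-fold. Over the 6 population pairs, 4 of 351 were higher and 18 lower (5.13%, against 8.66% over all genes). Higher counts became 14 with median-of-ratios scaling, 9 with start-site scaling, 1 at 2-fold and 2 with the highest peak, and lower counts 2, 2 and 0 under the first 3. With median-of-ratios scaling the 14 were 3.99% of members compared, against 3.34% over all genes, where the main counts were 1.14% against 1.52%. With start-site scaling the 9 were 2.56% against 3.04%. The highest share of reads over the lowest fell from 1.27 to 1.07 as a share of start-site reads. In the 150 bases nearest the start, the GC box was in 44.8% and the E-box in 3.45% of genes, and the Stat6-type palindrome in 3.45% against 8.62% in 300 bases. Runs from the first base gave 24.1% and the longest run near the start 69.0%. Depth limited single genes: with 46 and 61 reads, the KO over WT ratio of Rpl38 in Tfh214 was 1.20 with an exact interval of 0.801 to 1.79.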
